A study of Mus musculus with 9 samples.

Results

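The mitochondrial ribosomal protein genes are the nuclear genes for the proteins of the ribosome inside mitochondria, and their RNA was followed here in primary mouse microglia that had been fed apoptotic cells. Members were taken by name, as every gene probe of the array whose gene name is Mrpl (large subunit) or Mrps (small subunit) followed by a number and any letters. This gave 77 genes, 48 Mrpl and 29 Mrps, with 109 probes, out of 34650 gene names on the array and 24101 genes that could be tested. All 77 genes were well above background on all 9 arrays.

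Microglia came from the pooled brains, without olfactory bulb and cerebellum, of fms-EGFP pups of postnatal day 0 to 1, a line in which the fms promoter drives the fluorescent protein EGFP, and every group carries this transgene. The cultures grew for about 14 d with granulocyte-macrophage colony stimulating factor (GM-CSF, 5 ng/ml), were shaken off and settled for at least 24 h. Control microglia received no cells, Ph3h microglia were fed for 3 h and Ph24h microglia for 24 h with apoptotic cells of SH-SY5Y, a human neuroblastoma line treated with 3 μM staurosporine for 4 h, and each group had 3 one-color arrays from what the study calls independent experiments. Control microglia received nothing, and their samples are labeled 0 min, so no control shares the time of a fed group. The act of phagocytosis, the contact with dying cells, the added human RNA and the elapsed time thus cannot be told apart in any comparison below.

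The mitochondrial ribosome, or mitoribosome, translates the few messages that the mitochondrial genome encodes, all of them for subunits of the respiratory chain and ATP synthase. Its large subunit joins amino acids and its small subunit reads the message, and both are built from mitochondrially encoded RNA and proteins imported from the cytosol. Part of these proteins descend from bacterial ribosomal proteins and part were added in the mitochondrial lineage. Their amounts must match for a complete ribosome, and defects in single members cause human diseases of energy metabolism.

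Levels are given as log2 intensity relative to the 75th percentile of the gene probes of the same array, so that a level of 0 lies at that percentile, and a difference of 1 is a factor of 2. A gene was called when the adjusted p of the limma fit over all 24101 genes lay below 0.05, with p-values that measure the spread between these 3 arrays per group. The 75th percentile itself was 356 to 473 intensity units (control), 185 to 211 (Ph3h) and 156 to 161 (Ph24h), so that every value below is relative to the bulk of the RNA on the array. Of the 10 microglia markers on the array 9, among them Aif1 and Csf1r, were well above background on all 9 arrays and P2ry12 on 6. Their summed linear level (in multiples of the 75th percentile) was 1580 to 1660 (control), 1940 to 2150 (Ph3h) and 1400 to 1510 (Ph24h). This sum does not show single markers, whose median log2 fold change was 0.15 at 3 h and -0.50 at 24 h. Called lower at 24 h were 6 markers, 4 of these by more than 2-fold, whereas 2 markers were called higher. For 3 h the calls were 2 lower against 4 higher. Among all genes tested, the share called lower at 24 h was 33.2%. Of 9 neuron and SH-SY5Y markers tested, 7 were higher and 1 lower at 3 h and 7 were higher and none lower at 24 h. Their summed level was 1.24 to 1.4 (control), 117 to 131 (Ph3h) and 164 to 177 (Ph24h), and Chga, Hand2 and Isl1 were among those not well above background on any control array. The part of these transcripts' source in the values of the mitoribosomal genes was not tested. In these bulk samples, fewer microglia and less RNA per microglial cell cannot be told apart.

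Mitoribosomal genes were mostly lower after phagocytosis. At 3 h 44 of the 77 genes were lower than in control and 5 higher, where 25.9% of all genes tested were called lower and 27.9% higher. At 24 h 61 were lower and 4 higher, where 33.2% of all genes were called lower and 29.9% higher. The arrays of these called members did not overlap between the groups, which also held for 99% of all genes called at 3 h and 98.7% at 24 h. The median log2 fold change of the 77 genes was -0.27 at 3 h and -0.44 at 24 h, where that of all genes was 0.07 and 0.01. Among the 16703 genes that, like these, were well above background on all 9 arrays, 31.8% fell at 3 h and 42.3% at 24 h, with medians of 0.01 and -0.12. Most changes were small. At 24 h 28 genes lay more than 1.5-fold below control, and 3 (Mrpl16, Mrpl50 and Mrpl42) more than 2-fold.

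The arrays of a group lay closest together in Ph3h and furthest apart in Ph24h, where they spread wider than the median difference between 24 h and 3 h. As the median over the 77 genes of the log2 level minus the gene's control mean, the control arrays gave 0.01, 0.03 and -0.03, the Ph3h arrays -0.26, -0.25 and -0.27 and the Ph24h arrays -0.45, -0.36 and -0.55. Every fed array was thus below every control array, and every Ph24h array below every Ph3h array. The lowest Ph24h value was that of replicate 3, the array on slide 2. Slide 1 and slide 2 are names used here for arrays that share a scan date. Against the control arrays of the same slide, this median reached -0.28 (3 h) and -0.42 (24 h) on slide 1 (2 arrays per group) and -0.23 and -0.52 on slide 2 (1 array per group).

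**Figure D1:**
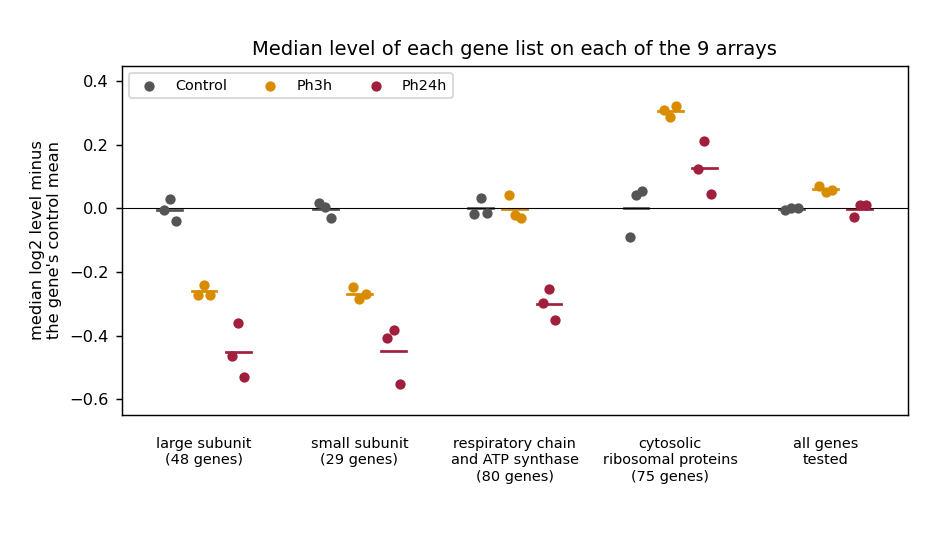
Median over each gene list of the log2 level minus the gene's mean over the control arrays (y axis), for each array (points, n = 3 per group) with the mean of the 3 arrays (lines). Both mitoribosomal subunits lie below control at 3 h, between -0.29 and -0.24, and lower at 24 h, and the respiratory chain subunits lie below control at 24 h. Cytosolic ribosomal proteins lie above control on this scale, but below it with quantile normalization (-0.14 at 3 h and -0.28 at 24 h).

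The median difference from control stayed negative under every scaling tried, whereas its size and the difference between 24 h and 3 h depended on the scaling. With quantile normalization 55 genes were lower and 1 higher at 3 h, and 59 lower and 4 higher at 24 h. Of all genes 31.0% were then called lower and 23.2% higher at 3 h, and 36.7% and 24.6% at 24 h. With each array centered on its median instead, 66 and 76 genes were lower and none was higher. Of all genes 35.3% and 50.9% were then called lower, and 17.9% and 15.9% higher. This centering also moved the median of all genes, to -0.18 at 3 h and -0.50 at 24 h. Relative to the median of all genes, the 77 genes lay at -0.33 and -0.45 with either the 75th percentile or the median, at -0.28 and -0.23 with quantile normalization and at -0.28 and -0.23 in the authors' value table.

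Between 3 h and 24 h, 32 genes fell further and 7 rose, where 24.0% of all genes were called lower at 24 h than at 3 h and 20.4% higher. The median of this difference over the 77 genes was -0.16, where that of all genes was 0.04. With quantile normalization 22 genes were lower and 15 higher, where 22.8% of all genes were called lower and 21.8% higher. The median over the 77 genes was then -0.02, so the part of the fall that lay after 3 h depended on the scaling. By pattern, 41 genes were lower at both times, 19 were called lower only at 24 h, 3 only at 3 h, 4 were higher at 3 h alone, 4 at 24 h alone, 5 were called at neither time, and 1, Mrpl3, rose at 3 h but fell at 24 h. Of the 41 genes lower at both times, 15 were also lower at 24 h than at 3 h. Of the 19 genes called lower only at 24 h, 13 differed between 24 h and 3 h by the test of that difference. An overall test for any difference among the 3 groups (moderated F) called 71 of the 77 genes, where 70.5% of all genes were called.

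**Figure D2:**
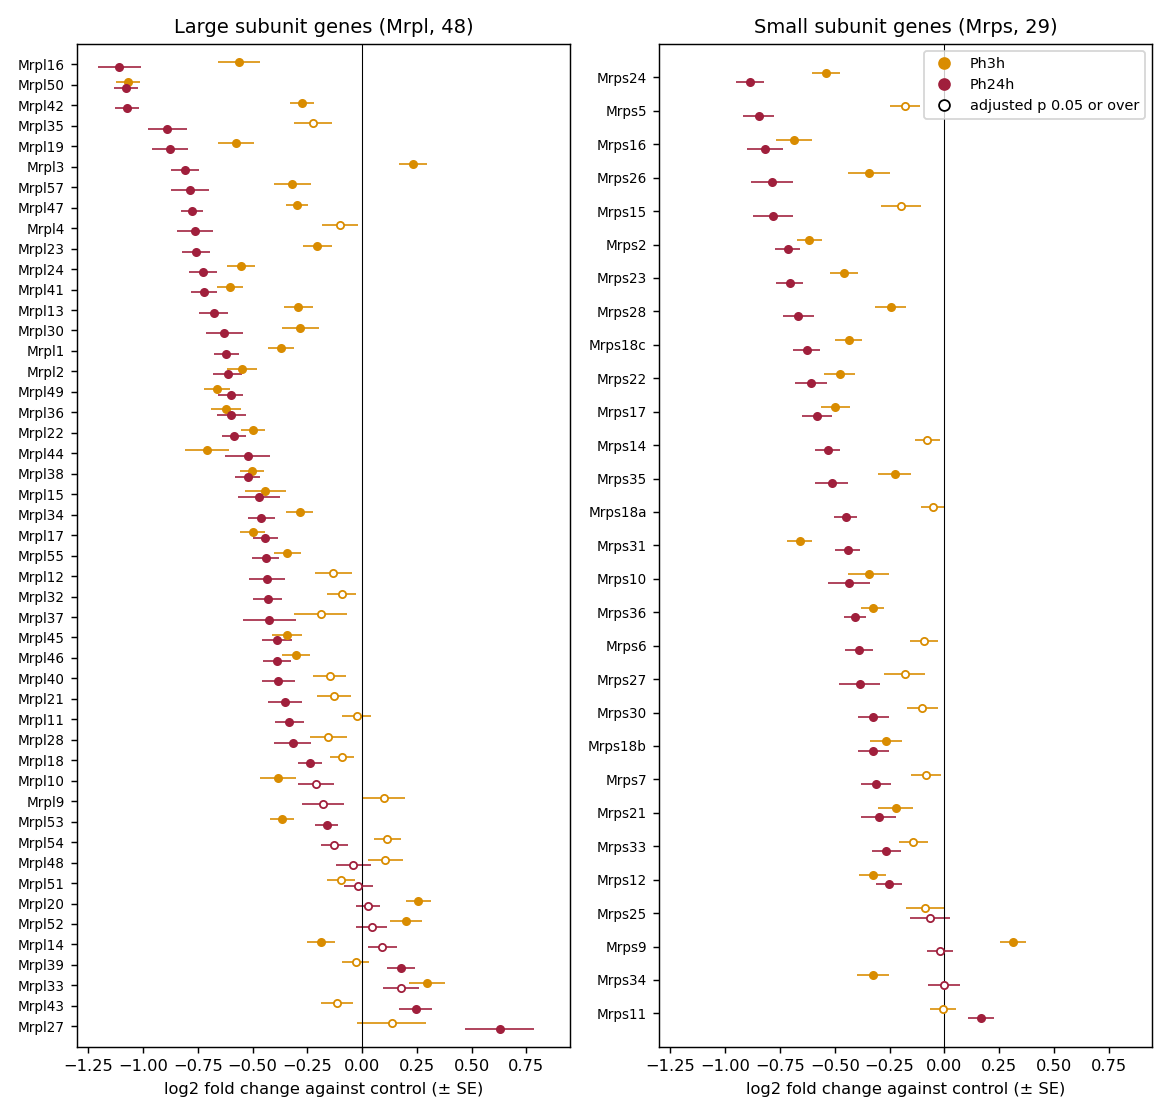
Log2 fold change against control (x axis, points with SE, n = 3 arrays per group) of every large subunit gene (left) and small subunit gene (right) at 3 h and 24 h, in the order of the value at 24 h. Filled points were called, and the 24 h values run from -1.11 for Mrpl16 to 0.63 for Mrpl27.

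Both subunits were mostly lower. Of the 48 large subunit genes 27 were lower and 4 higher at 3 h, and 36 were lower and 3 higher at 24 h. Of the 29 small subunit genes 17 were lower and 1 higher at 3 h, and 25 were lower and 1 higher at 24 h. The shares over all genes were 25.9% lower and 27.9% higher at 3 h, and 33.2% lower and 29.9% higher at 24 h. Among genes well above background on all 9 arrays, 31.8% were called lower at 3 h and 42.3% at 24 h. The median log2 fold change was -0.28 for the large and -0.25 for the small subunit at 3 h, and -0.44 for both at 24 h. On single arrays the median of the large minus that of the small subunit lay between -0.02 and 0.02 (control), -0.02 and 0.05 (Ph3h), and -0.06 and 0.02 (Ph24h), so that in every group 0 lay within the range of the arrays. The names do not give the place of every protein. Mrps30 and Mrps18a sit in the large subunit, and Mrps36 is now known as a part of the 2-oxoglutarate dehydrogenase complex. Mrps30 changed by -0.10 ± 0.0705 at 3 h and -0.33 ± 0.0705 at 24 h, Mrps18a by -0.05 ± 0.0534 and -0.45 ± 0.0534, and Mrps36 by -0.33 ± 0.0519 and -0.41 ± 0.0519. For Mrps30 and Mrps18a only the 24 h value was called, for Mrps36 both were. With Mrps30 and Mrps18a counted as large and Mrps36 left out, the large minus the small subunit was 0.01 at 3 h and 0.04 at 24 h.

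Genes for proteins with a bacterial counterpart and genes for proteins that mitochondria added were both mostly lower. Of 46 with a counterpart, 26 were lower and 4 higher at 3 h and 38 lower and 2 higher at 24 h, with medians of -0.24 and -0.50. Of 30 without one, 17 were lower and 1 higher at 3 h and 22 lower and 2 higher at 24 h, with medians of -0.27 and -0.39. The shares over all genes were 25.9% lower and 27.9% higher at 3 h, and 33.2% lower and 29.9% higher at 24 h. The difference between these classes was not tested.

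Promoters of the members, taken by gene name and not by their change, were read from RefSeq (build GRCm38.p6). All 77 genes matched RefSeq by symbol, and 68 have a promoter entry, which spans 250 bases before to 50 bases after the start of the transcript. Nuclear respiratory factor 1 (NRF1), the ETS family factor GABP and YY1 are known to bind promoters of genes for mitochondrial proteins. The letters CCGGAAG, which ETS factors bind, occurred on either strand in 25 of 68 member promoters (36.8%), against 9.93% of all 27025 genes with an entry and 12.9% of the protein-coding ones. AAGATGGC, a YY1 site, occurred in 12 (17.6%, against 3.19% and 3.57%), and the NRF1 core GCATGCGC in 8 (11.8%, against 3.05% and 3.94%). The MYC E-box CACGTG occurred in 5 (7.35%, against 8.09% and 8.91%), TATAAA in 5 (7.35%, against 15.7% and 14.8%), CCAAT in 27 (39.7%, against 41.1% and 42.3%) and CTCGCGAG in 2 (2.94%, against 1.04% and 1.41%). Of the 54 member promoters whose gene was lower at 24 h, 19 held the ETS letters, 11 the YY1 site and 4 the NRF1 core. Of the other 14, 6 held the ETS letters, 1 the YY1 site and 4 the NRF1 core. These matches describe letters and were not tested against the expression values.

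The 250 bases before the start are shown for 5 genes that span the patterns. Bases are read 5′ to 3′ on the strand of the gene, with the letters above in capitals. The counts above cover the whole promoter entry, which runs past the start. That entry also holds a YY1 site for Mrpl42 and for Mrps24, and a further CCAAT match for Mrpl3. None of these lies wholly within the bases shown. Mrpl16, chr19:11770165-11770414 (+ strand), fell the most at 24 h and has TATAAA 68 bases before the start. Mrpl42, chr10:95501950-95502199 (- strand), fell mainly after 3 h and has a CCAAT box in reverse orientation 218 bases before it. Mrps24, chr11:5707702-5707951 (- strand), fell the most in the small subunit and has the TATA letters in reverse 181 bases before it. Mrpl3, chr9:105053018-105053267 (+ strand), rose and then fell and has the ETS letters 19 bases before the start and CCAAT in reverse at 99 and 219 bases. Mrpl39, chr16:84735245-84735494 (- strand), was higher at 24 h on its brighter probe and holds the NRF1 core on both strands in 1 overlapping run, at 123 and 125 bases before the start, and CCAAT at 223 bases.
Mrpl16: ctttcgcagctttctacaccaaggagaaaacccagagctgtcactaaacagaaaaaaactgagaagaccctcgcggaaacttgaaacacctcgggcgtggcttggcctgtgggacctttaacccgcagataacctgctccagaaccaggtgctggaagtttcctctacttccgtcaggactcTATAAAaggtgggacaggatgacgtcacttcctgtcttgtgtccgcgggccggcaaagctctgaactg
Mrpl42: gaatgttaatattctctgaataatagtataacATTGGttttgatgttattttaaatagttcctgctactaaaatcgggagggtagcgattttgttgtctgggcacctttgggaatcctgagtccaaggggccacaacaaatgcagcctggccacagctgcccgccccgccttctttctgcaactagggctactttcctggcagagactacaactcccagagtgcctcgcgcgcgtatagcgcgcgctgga
Mrps24: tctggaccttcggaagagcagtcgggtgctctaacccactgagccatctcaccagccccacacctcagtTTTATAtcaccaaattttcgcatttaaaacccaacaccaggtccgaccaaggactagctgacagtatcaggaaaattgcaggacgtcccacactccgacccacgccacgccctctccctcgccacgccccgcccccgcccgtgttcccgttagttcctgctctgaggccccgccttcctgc
Mrpl3: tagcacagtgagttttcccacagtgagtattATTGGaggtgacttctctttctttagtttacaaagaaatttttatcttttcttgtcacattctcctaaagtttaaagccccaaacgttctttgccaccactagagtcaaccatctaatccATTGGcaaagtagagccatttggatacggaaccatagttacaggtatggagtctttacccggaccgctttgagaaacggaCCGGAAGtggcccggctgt
Mrpl39: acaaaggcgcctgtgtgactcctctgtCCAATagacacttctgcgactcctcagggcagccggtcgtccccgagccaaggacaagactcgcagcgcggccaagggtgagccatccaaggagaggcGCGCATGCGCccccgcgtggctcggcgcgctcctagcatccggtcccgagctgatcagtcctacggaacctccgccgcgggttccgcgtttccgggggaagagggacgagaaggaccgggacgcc

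The largest falls were those of Mrpl50, Mrpl16 and Mrpl42 in the large subunit. Mrpl50, a protein of the large subunit without a bacterial counterpart, fell early and stayed low. Mrpl50 had log2 levels of 3.36, 3.41 and 3.33 (control), 2.29, 2.27 and 2.33 (Ph3h) and 2.23, 2.34 and 2.29 (Ph24h). All 6 fed arrays lay more than 0.9 below the lowest control array, and the Ph3h and Ph24h arrays overlapped. The log2 fold change was -1.07 ± 0.0552 (SE, n = 3 per group, adjusted p = 5.11e-06) at 3 h and -1.08 ± 0.0552 (SE, n = 3 per group, adjusted p = 3.57e-06) at 24 h, or 2.1-fold and 2.11-fold lower. A second probe of Mrpl50 gave -0.79 and -0.53, in a fit over probes.

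Mrpl16, the counterpart of bacterial ribosomal protein L16 near the peptidyl transferase center, fell in steps. Mrpl16 had log2 levels of 4.56, 4.57 and 4.56 (control), 3.92, 4.01 and 4.08 (Ph3h) and 3.56, 3.56 and 3.24 (Ph24h). No arrays overlapped between any of the groups, and Ph24h replicate 3 was the lowest. The log2 fold change was -0.56 ± 0.0963 (SE, n = 3 per group, adjusted p = 0.00193) at 3 h and -1.11 ± 0.0963 (SE, n = 3 per group, adjusted p = 4.64e-05) at 24 h. From 3 h to 24 h it changed by -0.55 ± 0.0963 (SE, n = 3 per group, adjusted p = 0.00279).

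Mrpl42 fell mainly after 3 h. Mrpl42 had log2 levels of 2.69, 2.69 and 2.70 (control), 2.35, 2.44 and 2.47 (Ph3h) and 1.57, 1.67 and 1.61 (Ph24h). The control arrays lay closest together and the Ph24h arrays more than 0.6 below every Ph3h array. The log2 fold change was -0.27 ± 0.055 (SE, n = 3 per group, adjusted p = 0.00419) at 3 h and -1.08 ± 0.055 (SE, n = 3 per group, adjusted p = 3.57e-06) at 24 h, with a difference between these times of -0.80 ± 0.055 (SE, n = 3 per group, adjusted p = 2.40e-05). Mrpl35, a large subunit gene whose protein, unlike that of Mrpl42, has a bacterial counterpart, followed the same course. It changed by -0.22 ± 0.088 at 3 h, which was not called, and -0.89 ± 0.088 at 24 h.

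Mrpl44 and Mrpl49 fell at 3 h, with no further change called on their brightest probes. Mrpl44 belongs to a fold of RNA-cleaving enzymes and sits in the large subunit, and its log2 fold change was -0.71 ± 0.101 (SE, n = 3 per group, adjusted p = 7.46e-04) at 3 h and -0.52 ± 0.101 at 24 h. Mrpl49 changed by -0.66 ± 0.0582 (SE, n = 3 per group, adjusted p = 6.75e-05) and -0.60 ± 0.0582. For neither was a difference between 24 h and 3 h called (adjusted p = 0.179 and 0.431). A second probe of Mrpl49, well above background on all 9 arrays, gave -0.36 at 3 h, -0.11 at 24 h (not called) and a called rise of 0.25 between them (adjusted p = 0.00889, limma over probes), so whether Mrpl49 was called between 3 h and 24 h depended on the probe.

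In the small subunit Mrps24, Mrps5 and Mrps16 fell the most by 24 h. Mrps24 is the counterpart of the bacterial protein S3 at the entry of the message. Mrps24 had log2 levels of 4.10, 4.06 and 4.06 (control), 3.44, 3.59 and 3.57 (Ph3h) and 3.21, 3.25 and 3.11 (Ph24h). The groups did not overlap. Its log2 fold change was -0.54 ± 0.064 (SE, n = 3 per group, adjusted p = 2.95e-04) at 3 h and -0.89 ± 0.064 (SE, n = 3 per group, adjusted p = 1.87e-05) at 24 h, or 1.46-fold and 1.85-fold lower.

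Mrps16, a counterpart of bacterial S16, had already fallen at 3 h. Mrps16 had log2 levels of 5.53, 5.59 and 5.47 (control), 4.91, 4.89 and 4.73 (Ph3h) and 4.73, 4.82 and 4.59 (Ph24h). The Ph3h and Ph24h arrays overlapped and both lay below control. The log2 fold change was -0.69 ± 0.0823 (SE, n = 3 per group, adjusted p = 3.12e-04) at 3 h and -0.82 ± 0.0823 (SE, n = 3 per group, adjusted p = 9.78e-05) at 24 h.

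Mrps5, counterpart of bacterial S5, was among the genes that fell after 3 h. Mrps5 had log2 levels of 0.72, 0.71 and 0.67 (control), 0.52, 0.41 and 0.64 (Ph3h) and -0.20, -0.10 and -0.15 (Ph24h). Its Ph3h arrays were all below control, with a log2 fold change of -0.18 ± 0.0699 that was not called (adjusted p = 0.0635), and its Ph24h arrays lay at -0.85 ± 0.0699 (SE, n = 3 per group, adjusted p = 3.61e-05). Mrps15 (-0.20 ± 0.0909 at 3 h, not called, and -0.78 ± 0.0909 at 24 h) and Mrps14 (-0.08 ± 0.0561, not called, and -0.53 ± 0.0561) had the same order, and for all 3 the difference between 24 h and 3 h was called. Mrps14 had 2 dimmer probes, also well above background on all 9 arrays. The brighter of these was called lower at both times (-0.50 at 3 h, -1.44 at 24 h) and the dimmest at neither (-0.16, then -0.53), so whether Mrps14 was called at 3 h depended on the probe.

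**Figure D3:**
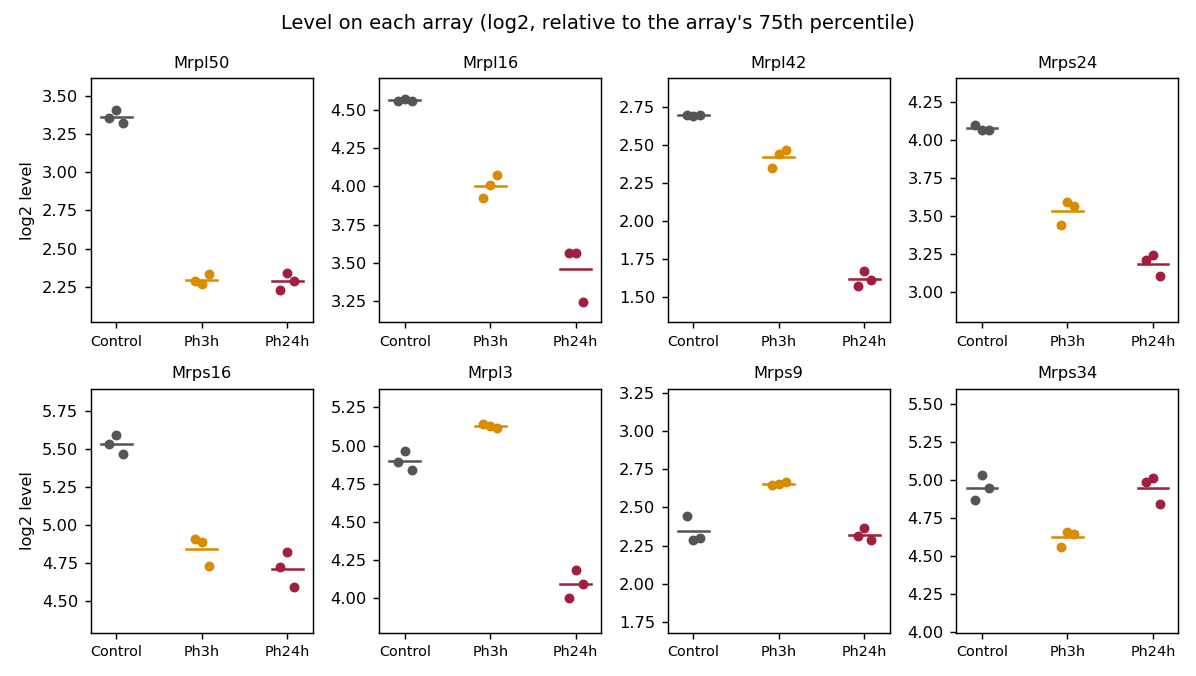
Log2 level relative to the array's 75th percentile (y axis, spanning 1.6 in each panel) of 8 members on each array (points) with group means (lines, n = 3). Mrpl50 and Mrps16 had fallen at 3 h, Mrpl42 mostly after 3 h, Mrpl3 rose at 3 h before it fell, and Mrps9 and Mrps34 were within 0.02 of control at 24 h.

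A few genes went up or came back. Mrpl3, the counterpart of bacterial L3 and an early assembling protein of the large subunit, was the gene with opposite calls at the 2 times. Mrpl3 had log2 levels of 4.89, 4.97 and 4.84 (control), 5.14, 5.13 and 5.11 (Ph3h) and 4.00, 4.18 and 4.09 (Ph24h). The Ph3h arrays lay above every control array and the Ph24h arrays below all others. The log2 fold change was 0.23 ± 0.065 (SE, n = 3 per group, adjusted p = 0.0191) at 3 h and -0.81 ± 0.065 (SE, n = 3 per group, adjusted p = 3.19e-05) at 24 h, a difference of -1.04 ± 0.065 (SE, n = 3 per group, adjusted p = 1.57e-05). The rise at 3 h was not called with quantile normalization (0.13, adjusted p = 0.0929) or in the authors' value table, and turned to -0.01 with the arrays centered on their median. It also lost the call without control replicate 1 (adjusted p = 0.0536), control replicate 3 (0.0619) or Ph3h replicate 1 (0.0519), within a range of 0.20 to 0.23 over these 3.

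Mrps9, counterpart of bacterial S9, was higher at 3 h and close to control at 24 h. Mrps9 had log2 levels of 2.44, 2.28 and 2.30 (control), 2.65, 2.66 and 2.67 (Ph3h) and 2.32, 2.36 and 2.29 (Ph24h). Its log2 fold change was 0.31 ± 0.0601 (SE, n = 3 per group, adjusted p = 0.00334) at 3 h and -0.02 ± 0.0601 at 24 h, and it was the member still called higher at 3 h with quantile normalization. The 3 h rise of Mrps9 was not called with the arrays centered on their median (0.07, limma adjusted p = 0.585). Nor was it called on slide 1 alone (0.29, limma adjusted p = 0.0571). Mrpl33 (0.30 ± 0.0801), Mrpl20 (0.26 ± 0.0561) and Mrpl52 (0.20 ± 0.0725) were also called higher at 3 h, but not with quantile or median scaling, and without Ph3h replicate 1 only 2 members were called higher at 3 h.

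The reverse course, lower at 3 h and then higher than at 3 h, was called for 4 genes. Mrps34 had log2 levels of 4.86, 5.03 and 4.95 (control), 4.56, 4.66 and 4.64 (Ph3h) and 4.98, 5.01 and 4.84 (Ph24h). Mrps34 thus fell by 0.33 on the log2 scale at 3 h (SE 0.0715, adjusted p = 0.00642) and was 0.32 ± 0.0715 (SE, n = 3 per group, adjusted p = 0.00815) higher at 24 h than at 3 h. Mrps31 changed by -0.66 ± 0.0564 at 3 h and -0.44 ± 0.0564 at 24 h, and Mrpl14 by -0.19 ± 0.0645 and 0.09 ± 0.0645, the last not called. Mrpl53 (-0.36 ± 0.0537 and -0.16 ± 0.0537) was the other. With the arrays centered on their median, Mrps34, Mrps31 and Mrpl14 no longer differed between 24 h and 3 h by the test. The fall of Mrpl14 at 3 h lost its call on slide 1 alone, with no filter, with only the compared groups in the fit, without any 1 of the control arrays, without Ph3h replicate 1 or 3 and without Ph24h replicate 1, with values of -0.22 to -0.15. Its rise from 3 h to 24 h lost its call on slide 1 alone (0.28).

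Mrpl27, Mrpl43, Mrpl39 and Mrps11 were the genes called higher at 24 h. Mrpl27 had the largest rise, 0.63 ± 0.157 (SE, n = 3 per group, adjusted p = 0.00979), and the others changed by 0.24 ± 0.0749, 0.18 ± 0.0627 and 0.17 ± 0.0606. With the arrays centered on their median, Mrpl27 was at 0.12 and not called, and the other 3 were called lower (-0.26, -0.33 and -0.34). With quantile normalization all 4 were called higher. A second probe of Mrpl43 gave 0.15, which was not called. Leaving out 1 array kept the call of Mrpl27 each time. Mrpl43 lost it without control replicate 1 or 3 or Ph24h replicate 1 or 2, Mrpl39 without these or Ph3h replicate 3, and Mrps11 without any 1 of 7 arrays, all but control replicate 1 and Ph24h replicate 3, so that 1 gene remained called higher without control replicate 3 or Ph24h replicate 1 or 2.

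**Figure D4:**
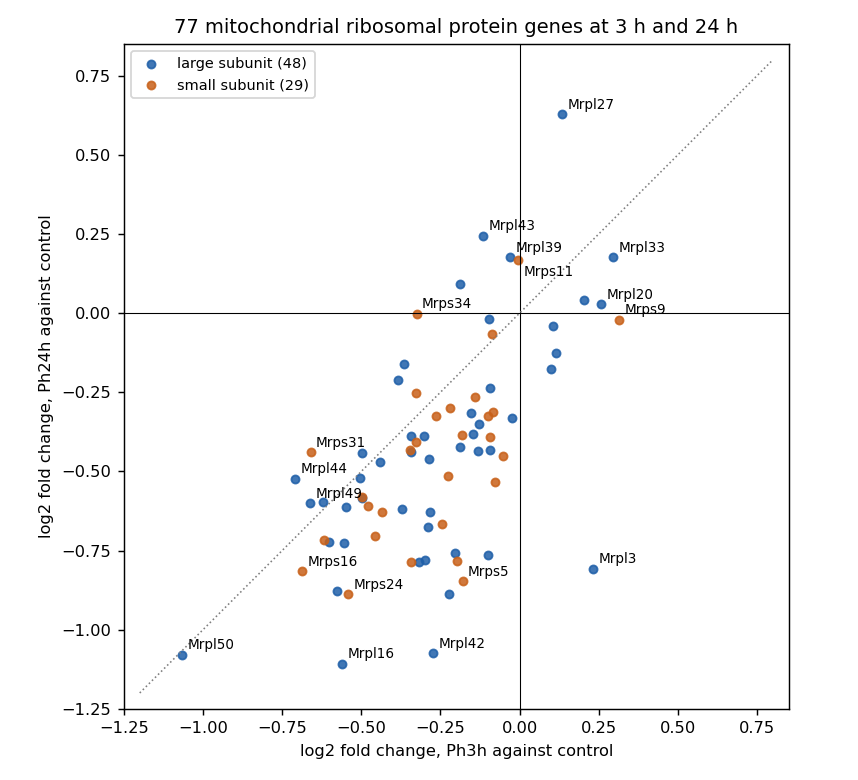
Log2 fold change against control at 3 h (x axis) and 24 h (y axis) of the 77 genes (points, colored by subunit), which share the control arrays. Most points lie below the dotted line of equal values and are negative on both axes, and Mrpl3 stands alone with 0.23 at 3 h and -0.81 at 24 h.

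The array carries more than 1 probe for 28 of the 77 genes, and 27 of these had more than 1 probe above background on at least 1 array. The median range between the probes of a gene was 0.35 at 24 h. Probes of 2 genes (Mrps2 and Mrps26) gave called differences of opposite sign at 3 h, and probes of 3 genes (Mrps2, Mrpl27 and Mrpl39) at 24 h. The calls counted for these 4 genes rest on the brighter probe. The first 30 bases of each 60-base probe of Mrps2, Mrpl27 and Mrpl39 are shown, 5′ to 3′, since each pair reads another stretch of the same gene, with the position of the whole probe in the mm9 build (NCBI37) as the files give it.
Mrps2, brighter probe, chr2:28326283-28326342 (+ strand): caaagaaggaaatccatacctgtttcccac
Mrps2, other probe, chr2:28325206-28325265 (+ strand): gcctaccagacctcatcatctttctgcaca
Mrpl27, brighter probe, chr11:94521032-94521091 (+ strand): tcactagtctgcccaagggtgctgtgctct
Mrpl27, other probe, chr11:94521320-94521379 (+ strand): ccatctataatctcttcttgtgtgtctgaa
Mrpl39, brighter probe, chr16:84718547-84718606 (- strand): gacagagaacaccgaatccacccagtagtg
Mrpl39, other probe, chr16:84717975-84718034 (- strand): gttctgttagatgctaccagatgctagcct

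Mrps2 codes for the counterpart of bacterial S2, and its probes disagreed at both times. The brighter probe gave log2 levels of 2.57, 2.54 and 2.49 (control), 1.84, 1.96 and 1.95 (Ph3h) and 1.79, 1.86 and 1.81 (Ph24h). The other probe gave 0.15, -0.03 and 0.10 (control), 1.33, 1.38 and 1.27 (Ph3h) and 0.85, 0.80 and 0.69 (Ph24h). In the fit over probes the differences were -0.62 ± 0.0602 (SE, n = 3 per group, adjusted p = 1.27e-04) and -0.72 ± 0.0602 (SE, n = 3 per group, adjusted p = 4.69e-05) for the brighter probe, and 1.25 ± 0.0735 (SE, n = 3 per group, adjusted p = 1.15e-05) and 0.71 ± 0.0735 (SE, n = 3 per group, adjusted p = 1.32e-04) for the other. Both probes were well above background on all 9 arrays, so no single direction can be given for Mrps2, and the average of its probes was 0.32 at 3 h and -0.0042 at 24 h.

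The brighter probe of Mrpl27 gave 4.80, 4.25 and 4.86 (control), 4.87, 4.73 and 4.71 (Ph3h) and 5.29, 5.31 and 5.19 (Ph24h). Control replicate 2 lay 0.5 or more below the other control arrays. The other probe gave 5.09, 5.09 and 5.08 (control), 4.46, 4.38 and 4.39 (Ph3h) and 4.69, 4.77 and 4.62 (Ph24h), with differences of -0.67 ± 0.059 and -0.39 ± 0.059, both called, against 0.13 ± 0.158 (not called) and 0.63 ± 0.158 for the brighter one. The rise of Mrpl27 at 24 h thus rests on 1 of its 2 probes.

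The other probe of Mrpl39 was dim, with log2 levels of -2.24, -2.10 and -2.26 (control), -3.55, -2.96 and -4.20 (Ph3h) and -3.02, -3.04 and -2.96 (Ph24h), and was well above background on 8 arrays. It gave -1.37 ± 0.272 and -0.81 ± 0.272, both called, against -0.03 ± 0.0652 (not called) and 0.18 ± 0.0652 for the brighter probe. A dim second probe of Mrpl20, well above background on 2 arrays, gave -0.30 at 3 h, which was not called.

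**Figure D5:**
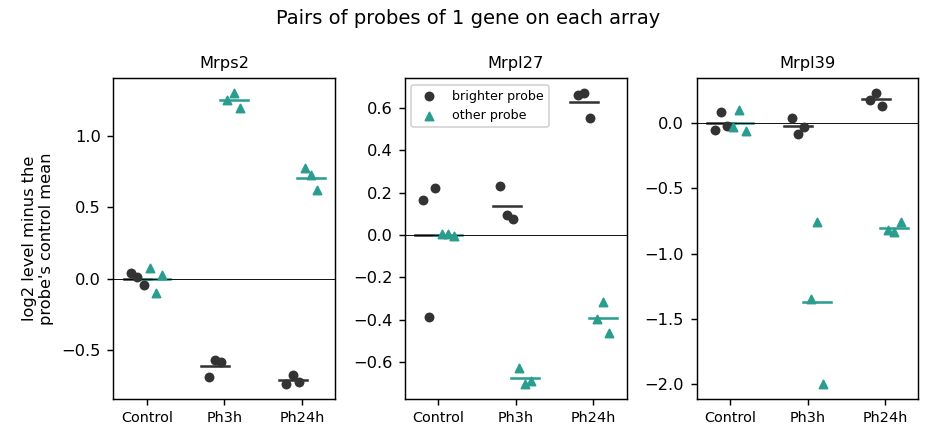
Log2 level minus the probe's own control mean (y axis) for both probes of Mrps2, Mrpl27 and Mrpl39 on each array (points) with group means (lines, n = 3). The probes of Mrps2 move apart at both times, to -0.62 and 1.25 at 3 h and -0.72 and 0.71 at 24 h.

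Mitoribosomal proteins whose genes carry other names were also mostly lower. Of 6 such genes measured, 3 fell at 3 h and 5 at 24 h, and none rose. Of all genes tested 25.9% were called lower at 3 h and 33.2% at 24 h. At 3 h all 6 were called lower with quantile normalization, with median centering and in the authors' value table, so that which of them were called at 24 h alone holds for the 75th percentile scale. Dap3, a GTP-binding protein of the small subunit also known for a role in cell death, changed by -0.52 ± 0.063 at 3 h and -0.40 ± 0.063 at 24 h, both called. Ptcd3, an RNA-binding protein of the small subunit, changed by -0.49 ± 0.0577 at 3 h and -0.61 ± 0.0577 at 24 h, both called. Gadd45gip1, a large subunit protein, was called lower at 3 h only, with -0.54 ± 0.0785 at 3 h and -0.05 ± 0.0785 at 24 h. Ict1, a peptidyl-tRNA hydrolase built into the large subunit, Aurkaip1 and Chchd1 were called lower at 24 h only, at -0.29, -0.33 and -0.20.

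Genes that build the mitoribosome and modify its RNA were mostly lower as well. Of 23 tested, 15 were lower and none higher at 3 h, and 16 were lower and 2 higher at 24 h, with medians of -0.45 and -0.44. Of all genes 25.9% were called lower and 27.9% higher at 3 h, and 33.2% and 29.9% at 24 h. Ngrn changed the most at 3 h, by -1.50 ± 0.0685 at 3 h and -0.67 ± 0.0685 at 24 h. Mtg1, a GTPase of large subunit assembly, changed the most at 24 h (-0.52 ± 0.0604 at 3 h and -1.09 ± 0.0604 at 24 h), and Tfb1m, the methyltransferase of the small subunit RNA, came next (-0.73 ± 0.0699 at 3 h and -1.02 ± 0.0699 at 24 h). Malsu1, which keeps the subunits apart during assembly, and the helicase Dhx30 were those called higher at 24 h, at 0.24 and 0.22, and both were called lower with the arrays centered on their median (-0.27 and -0.28). Between 3 h and 24 h 7 of these genes rose and 6 fell, where 20.4% of all genes were called higher and 24.0% lower. The median of this list was 0.10. The direction of this median depended on the scaling, with 10 higher, 5 lower and a median of 0.19 with quantile normalization, and 2 higher, 7 lower and a median of -0.16 with the arrays centered on their median.

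Of 14 mitochondrial translation factors, 7 were lower and 1 higher at 3 h, and 11 lower and 1 higher at 24 h, with medians of -0.38 and -0.42. Of all genes 25.9% were called lower and 27.9% higher at 3 h, and 33.2% and 29.9% at 24 h. Mtif2, the initiation factor, was the one called higher, by 0.84 ± 0.128 at 3 h and 1.07 ± 0.128 at 24 h. Guf1, an elongation factor, changed by -0.26 ± 0.144 at 3 h and -2.26 ± 0.144 at 24 h, the first not called, and Taco1, which activates translation of the COX1 message, by -1.29 ± 0.0939 at 3 h and -0.50 ± 0.0939 at 24 h. Of 15 genes of mitochondrial transcription and RNA processing, 10 fell at 3 h and 12 at 24 h, and none rose. The paralogs Mterf1a and Mterf1b, near-identical copies whose probes may read both, changed by -2.01 ± 0.135 at 3 h and -0.38 ± 0.135 at 24 h and by -2.12 ± 0.133 at 3 h and -0.17 ± 0.133 at 24 h, the last not called. Tfam, which packages the mitochondrial genome and starts its transcription, changed by -0.95 ± 0.0701 at 3 h and -0.66 ± 0.0701 at 24 h.

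The messages that the mitoribosome translates moved in both directions. Of the 13 mitochondrially encoded mRNAs, 5 were higher and 6 lower at 3 h, where 27.9% of all genes were called higher and 25.9% lower. At 24 h 3 were higher and 4 lower, where 29.9% of all genes were called higher and 33.2% lower. With quantile normalization 2 were higher and 7 lower at 3 h, and 2 were higher and 6 lower at 24 h. With the arrays centered on their median, 3 were higher and 10 lower at 24 h. ND6 changed by 1.20 ± 0.114 at 3 h and 1.13 ± 0.114 at 24 h and COX2 by 0.97 ± 0.128 at 3 h and 0.86 ± 0.128 at 24 h, whereas ND3 changed by -1.48 ± 0.0994 at 3 h and -0.24 ± 0.0994 at 24 h, the last not called. The nuclear subunits of the respiratory chain and ATP synthase were lower mainly at 24 h. Of 80 tested, 18 (22.5%) were lower and 15 (18.8%) higher at 3 h, both below the shares of all genes given above. At 24 h 49 (61.3%) were lower and 4 (5%) higher. The medians were -0.01 at 3 h and -0.31 at 24 h. The median per array was -0.03 to 0.04 in Ph3h and -0.35 to -0.25 in Ph24h. With quantile normalization 46 were lower and 7 higher at 3 h, with a median of -0.18, and 64 were lower and 3 higher at 24 h.

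For the ribosomal proteins of the cytosol the direction depended on the scaling. Relative to the 75th percentile, 42 of 75 were called higher and 1 lower at 3 h, and at 24 h 33 were higher and 10 lower, with medians of 0.32 and 0.13. Of all genes 27.9% were called higher and 25.9% lower at 3 h, and 29.9% and 33.2% at 24 h. With quantile normalization 28 fell and 16 rose at 3 h, and at 24 h 48 fell and 12 rose, with medians of -0.14 and -0.28. With the arrays centered on their median, the medians were 0.08 at 3 h and -0.38 at 24 h. No direction can be given for this list, whereas the median of the mitoribosomal genes was negative under each of these scalings.

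Of 9 regulators of mitochondrial biogenesis, 4 were lower and 2 higher at 3 h, and 5 were lower and 2 higher at 24 h. Of all genes 25.9% were called lower and 27.9% higher at 3 h, and 33.2% and 29.9% at 24 h. Myc, which drives genes of ribosome building, changed by -3.13 ± 0.0939 at 3 h and -1.59 ± 0.0939 at 24 h, and the coactivators Ppargc1b and Pprc1 were lower at both times (-0.89 ± 0.163 at 3 h and -1.86 ± 0.163 at 24 h, and -0.66 ± 0.0976 at 3 h and -0.89 ± 0.0976 at 24 h). Gabpa, the DNA-binding part of GABP, was higher at both times (0.61 ± 0.111 at 3 h and 0.72 ± 0.111 at 24 h). With the arrays centered on their median, none of the 9 regulators was called higher at 24 h and 8 were lower. The call of Gabpa at 24 h thus depended on the scaling. Nrf1 was lower at 3 h, with -0.36 ± 0.10 at 3 h and -0.09 ± 0.10 at 24 h, the last not called. Yy1 was called higher at 24 h at 0.23, and lower with the arrays centered on their median (-0.28).

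Many mitoribosomal genes lie head to head with another gene. For 26 of the 68 members with a promoter entry (38.2%), a gene on the other strand starts within 1000 bases upstream, against 12.3% of all genes with an entry and 13.2% of the protein-coding ones. Leaving aside Mrps11 and Mrpl46, which face each other, 23 neighbors were measured on the arrays. At 24 h 17 of these were lower and 1 higher, where 33.2% of all genes were called lower and 29.9% higher. Of the 23 members facing them 19 were lower, and 15 pairs had both genes lower. At 3 h 13 neighbors were lower and 3 higher, where 25.9% of all genes were called lower and 27.9% higher. Of the 23 members 12 were then lower, and 7 pairs had both genes lower. Whether both genes of a pair were lower more often than these separate counts give was not tested. The median log2 fold change of the neighbors was -0.30 at 3 h and -0.53 at 24 h, where that of all genes was 0.07 and 0.01. With quantile normalization 15 neighbors were lower at 3 h and 18 at 24 h, with medians of -0.40 and -0.50. Of all genes 31.0% and 36.7% were then called lower. Against other genes the neighbors were not tested.

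Mrps11 and Mrpl46 start 42 bases apart in opposite directions and were called in opposite directions at 24 h, at 0.17 ± 0.0606 (SE, n = 3 per group, adjusted p = 0.0439) and -0.39 ± 0.0633 (SE, n = 3 per group, adjusted p = 0.00119). With the arrays centered on their median Mrps11 was called lower as well (-0.34), and its call was lost without any 1 of 7 arrays, so that the opposite directions depend on the scaling and on single arrays. Mrpl49 starts 192 bases from Fau, which codes for a cytosolic ribosomal protein fused to a ubiquitin-like protein. Mrpl49 fell, and Fau was called higher at both times, by 0.24 ± 0.0729 and 0.35 ± 0.0729, but lower with quantile normalization (-0.45 and -0.42), so that its direction depends on the scaling. Mrpl43 starts 116 bases from Twnk (Peo1 on the array), the helicase of the mitochondrial genome. Twnk changed by -1.44 ± 0.167 at 3 h and -0.49 ± 0.167 at 24 h, both called lower, and Mrpl43 was at -0.11 (not called) and 0.24. Mrpl47 and Ndufb5, a subunit of respiratory complex I, start 308 bases apart, and both were lower at 24 h, by -0.78 ± 0.0505 and -0.59 ± 0.0696. Mrps12 and Sars2, the mitochondrial seryl-tRNA synthetase, start 147 bases apart, and at 24 h they were at -0.25 ± 0.0603 and -0.46 ± 0.0954, both called. These 5 pairs were chosen after their values were seen.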

How the data were processed

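Mouse primary microglia of 3 groups were measured on 9 one-color Agilent arrays. Replicates 1 and 2 of each group share 1 scan date (called slide 1 here) and replicate 3 another (slide 2). The slides themselves were not identified. The authors deposited 1 scanner file per array (Agilent Feature Extraction 10.7.3.1), whose processed signal is a background-subtracted intensity on a linear scale, not normalized between arrays. A second deposited file, also by the authors, holds log2 values of 36655 probes, made with GeneSpring GX after probes absent from every sample were removed, in which each probe is centered over the 9 arrays. Its array medians were 0.089 to 0.0978 (control), -0.00565 to 0.00591 (Ph3h) and -0.0712 to -0.0471 (Ph24h). Its scaling between arrays is not stated. Set against the intensities its differences had a slope of 0.955 (3 h) and 0.942 (24 h) over all genes, so both count a rise as positive. Single genes and lists can still differ in direction. The median of the cytosolic ribosomal proteins was -0.12 at 3 h and -0.26 at 24 h in this file.

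Intensities were taken to log2 and flagged spots were dropped. Spots of a probe were averaged, and the array's 75th percentile over gene probes was subtracted. Probes had to be well above background on 1 or more arrays, the brightest probe stood for its gene, and 24101 genes were fitted in 1 model of 3 groups with limma 3.58.1 in R 4.3.3 (files read with version 1.17.8 of data.table). P-values were adjusted with Benjamini-Hochberg over all genes, and results of single probes come from the same fit over all probes kept. The methods' regression on time, with R2 limits of 0.7 and 0.9, was an alternative, beside other scalings, background correction, filters, probe choice, blocks and left-out arrays. The number of arrays limits the precision, and the standard error of a member at 24 h was 0.0505 to 0.157.

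Named members are the 3 largest rises and falls per subunit and comparison among called genes without overlap, members with probes of opposite sign, Mrps30, Mrps18a and Mrps36, and mitoribosomal proteins with other names, and other genes were chosen after their values were seen. In the other lists up to 3 called genes with large changes were named. The members and lists were chosen with earlier results of these data known. Marker lists of astrocytes (1 of 5 higher and none lower at 3 h, none higher and 1 lower at 24 h), the oligodendrocyte lineage (2 higher and 1 lower of 5, then 3 and 2) and fibroblasts and endothelium (2 of 4 higher at both times) were also measured, and of 10 microglia markers 4 rose and 2 fell at 3 h, and at 24 h 2 rose and 6 fell. The separate probe values of Mrps26 are not reported here. Fits were tested on simulated data.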

Additional observations from a re-analysis of the deposited data

Results flagged for a closer look

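For 19 of the named members the change from control differed between 3 h and 24 h, by the limma test of 24 h against 3 h (adjusted p below 0.05 over all genes). The difference, as the log2 fold change at 24 h minus that at 3 h, was negative for 13 of them. It was -1.04 for Mrpl3, -0.80 for Mrpl42, -0.67 for Mrps5, -0.66 for Mrpl35, -0.59 for Mrps15, -0.55 for Mrpl16, -0.46 for Mrps14, -0.44 for Mrps26, -0.40 for Mrps18a, -0.35 for Mrps24, -0.34 for Mrps9, -0.23 for Mrpl20 and -0.22 for Mrps30. It was positive for 6, at 0.21 for Mrpl39, 0.22 for Mrps31, 0.28 for Mrpl14, 0.32 for Mrps34, 0.36 for Mrpl43 and 0.49 for Mrpl27. Centering the arrays on their median left none of these 6 called higher and turned Mrpl39 and Mrps31 to -0.06 and -0.04. The call of Mrpl27 was lost without any 1 of the 6 fed arrays. It held in 10 of 21 alternative settings, that of Mrpl39 in 11 and that of Mrps30 in 8. With quantile normalization Mrps30 (-0.05) and Mrpl20 (-0.11) were not called, nor were they in the authors' value table.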

How the results depend on the processing

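Of 58 called changes of the 27 named members, 50 kept their direction under every alternative run and 33 also kept the call. Every count of members lower than control stayed within 1.5 times its value. The members' median at 3 h, at 24 h and for 24 h against 3 h was -0.35, -0.37 and -0.020 with quantile normalization, -0.35, -0.37 and -0.022 in the authors' value table, -0.34, -0.35 and -0.034 with normexp and quantile normalization, and -0.51, -0.95 and -0.43 with the arrays centered on their median.

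Members higher at 3 h numbered 1 with quantile normalization and in the value table, 3 with normexp, 0 with median centering and 0 on slide 1 alone. Members higher at 24 h numbered 0 with median centering, 2 without a filter, with the mean over probes and with only the 2 groups fitted, and 1 on slide 1 alone. Members higher at 24 h than at 3 h numbered 15 with quantile normalization, normexp and the value table, 0 with median centering, 4 without a filter and 2 on slide 1 alone. Of all genes 21.8%, 23.1% and 21.4% were called so with quantile normalization, normexp and the value table. With median centering 10.3% were, without a filter 13.7% and on slide 1 alone 14.8%. Members lower at 24 h than at 3 h numbered 59 with median centering, 20 with normexp and 14 on slide 1 alone. Of all genes 35.3%, 22.9% and 17.7% were called lower in these settings. Large minus small subunit at 3 h was 0.035 with quantile normalization, 0.043 with normexp, 0.038 in the value table, 0.020 on slide 1 alone and 0.0061 by place in the mitoribosome, and by place 0.037 at 24 h. The methods' regression with an R2 over 0.9 gave 45 members.

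Median centering reversed Mrpl3 at 3 h (-0.013), Mrpl39, Mrpl43 and Mrps11 at 24 h (-0.33, -0.26 and -0.34) and Mrpl39 and Mrps31 for 24 h against 3 h (-0.058 and -0.044). The mean over probes reversed Mrpl20 and Mrps2 at 3 h (-0.020 and 0.32) and Mrpl39 at 24 h (-0.32). Apart from the probes that disagree, the cause was not tested.

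Leaving out 1 array gave 2 (without Ph3h replicate 1) to 5 members higher at 3 h, 1 (without control replicate 3 or Ph24h replicate 1 or 2) to 4 higher at 24 h, 3 (without Ph24h replicate 1) to 8 higher at 24 h than at 3 h, and -0.033 to 0.013 for the large minus small subunit at 3 h. Higher at 3 h were 3 without control replicate 1 or 3, higher at 24 h 2 without control replicate 1 or Ph3h replicate 3, and higher at 24 h than at 3 h 4 without Ph3h replicate 2 or Ph24h replicate 2.

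Arrays of the same replicate number did not deviate together (correlation across genes of their deviations from the group means -0.06 to 0.04 over 9 pairs, against -0.04 to 0.04 for other numbers), so the numbers name arrays and do not pair them. With the replicate block 4 members rose and 42 fell at 3 h, and at 24 h 1 rose and 61 fell. Run on the other lists and the neighboring genes after their values were seen, the scalings turned the median of the assembly list between 3 h and 24 h (-0.16 with median centering) and that of the cytosolic ribosomal proteins (-0.14 at 3 h and -0.28 at 24 h with quantile normalization). With 3 arrays per group and values relative to each array, a change shared by most genes cannot be measured here.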
